A study of Rattus norvegicus with 6 samples.

Results

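The receptors and helpers by which the proximal tubule takes filtered protein back from the urine were followed as 10 genes: Lrp2, Cubn, Amn, Dab2, Lrpap1, Clcn5, Ocrl, Fcgrt, Rab11a and Myo6. Every array probe whose transcript accession maps to these symbols was taken, which gave 15 probes of 61537 on the array and 9 of the 10 genes. No probe mapped to Myo6, a motor protein of endocytic vesicles, and it was not analysed here. Of the 15 probes, 14 passed the filter on dim probes, as did 37822 probes of the whole array, which stood for 11530 named genes. To pass, a probe had to be well above background in each of the 3 animals of either group, and all 14 were so on all 6 arrays.

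The tissue was renal cortex of male Sprague-Dawley rats (the Crl:CD(SD) stock), bought at 5 weeks of age. The 3 treated rats received ethylenediamine dihydrochloride, a salt of a small diamine, at 500 mg/kg/day for 4 weeks, and the 3 control rats received water for the same time. Total RNA of each animal was labelled with Cy3 and hybridised to its own 1-colour Agilent array. Levels are given as log2 intensity relative to the array's 75th percentile, so that 1 unit is a doubling, and a level of 1 probe cannot be set against that of another. Whole cortex was sampled, in which fewer cells of a type and less RNA per cell cannot be told apart.

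Megalin, the product of Lrp2, is a very large receptor of the LDL receptor family in the brush border of the proximal tubule. It works with cubilin (Cubn), a peripheral membrane protein that needs amnionless (Amn) to reach the surface, and together they bind albumin, vitamin carriers and many other filtered proteins. The adaptor Dab2 links the receptors to clathrin-coated pits, the vesicles are acidified, and the receptors recycle to the surface while their cargo goes to lysosomes. In people, inherited loss of Clcn5 or Ocrl causes Dent disease and Lowe syndrome, both with low-molecular-weight proteinuria.

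The promoters of the receptor pair, Lrp2 and Cubn, are shown because both receptors stand at the centre of the group. The 250 bases before each gene's start were taken from RefSeq (build GRCr8), both from the minus strand, at chr3:74754536-74754785 for Lrp2 and chr17:81501695-81501944 for Cubn. Capitals mark CAAAGTNCA, a motif of the HNF4 type, and GGGCGG, the GC box bound by Sp1.
Lrp2: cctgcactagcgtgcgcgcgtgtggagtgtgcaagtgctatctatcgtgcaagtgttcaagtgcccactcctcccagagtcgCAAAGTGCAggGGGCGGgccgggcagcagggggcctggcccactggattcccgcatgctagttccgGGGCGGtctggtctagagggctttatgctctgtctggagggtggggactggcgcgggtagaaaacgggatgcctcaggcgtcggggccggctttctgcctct
Cubn: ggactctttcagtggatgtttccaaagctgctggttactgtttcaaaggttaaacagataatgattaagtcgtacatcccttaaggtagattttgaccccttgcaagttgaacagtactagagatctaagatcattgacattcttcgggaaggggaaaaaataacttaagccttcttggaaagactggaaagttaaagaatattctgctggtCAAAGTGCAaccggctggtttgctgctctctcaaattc
CAAAGTNCA, searched on both strands, was present in both, starting 168 bases before the Lrp2 start and 38 bases before the Cubn start, with no overlap with a GC box. It was found in 1.06% of the 33469 promoter windows of the same length and in 2 of the 9 genes of the group with a window in the table. This motif was chosen after the sequences were read. GGGCGG, searched on both strands, was present in Lrp2 but not in Cubn, in 6 of those 9 genes and in 30.5% of all windows. The 9 genes with a window include Myo6 and not Ocrl, so they are not the 9 measured on the arrays. The letters GTTAAT, part of the HNF1 recognition motif, were searched on both strands and were in 0 of those 9 genes and in 6.45% of all windows. A match is a description of letters and not of binding.

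On the brightest probe of each gene, signals for megalin, the endosomal chloride exchanger Clcn5, amnionless and Dab2 were slightly lower in ethylenediamine-treated cortex. They stood at 87.2% to 90.7% of water. Cubn, Lrpap1 and Fcgrt stood at 99.5% to 101% of it, Rab11a at 94.7% and Ocrl at 121%. Of the 95% intervals, only that of Lrp2 did not include the water level. None of the 9 genes passed the test over all genes. By limma, 0 of 9 genes and 0 of 14 probes had an adjusted p under 0.05, where 0% of all 11530 genes and 0.0106% of all 37822 probes were called. At an unadjusted p under 0.05, 1 of 9 genes was lower (Lrp2) and 0 were higher, where 10.4% of all genes passed, 4.97% lower and 5.39% higher. Of the 14 probes, 2 were lower (of Lrp2 and of Clcn5) and 0 higher, where 5.84% of all probes were lower and 4.85% higher. The median log2 fold change of the 9 genes was -0.08, against -0.00 over all genes tested, and 6 of 9 were negative, against 51.2% of all genes. Over probes, 11 of 14 were negative, against 51.9% of all probes.

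**Figure D1:**
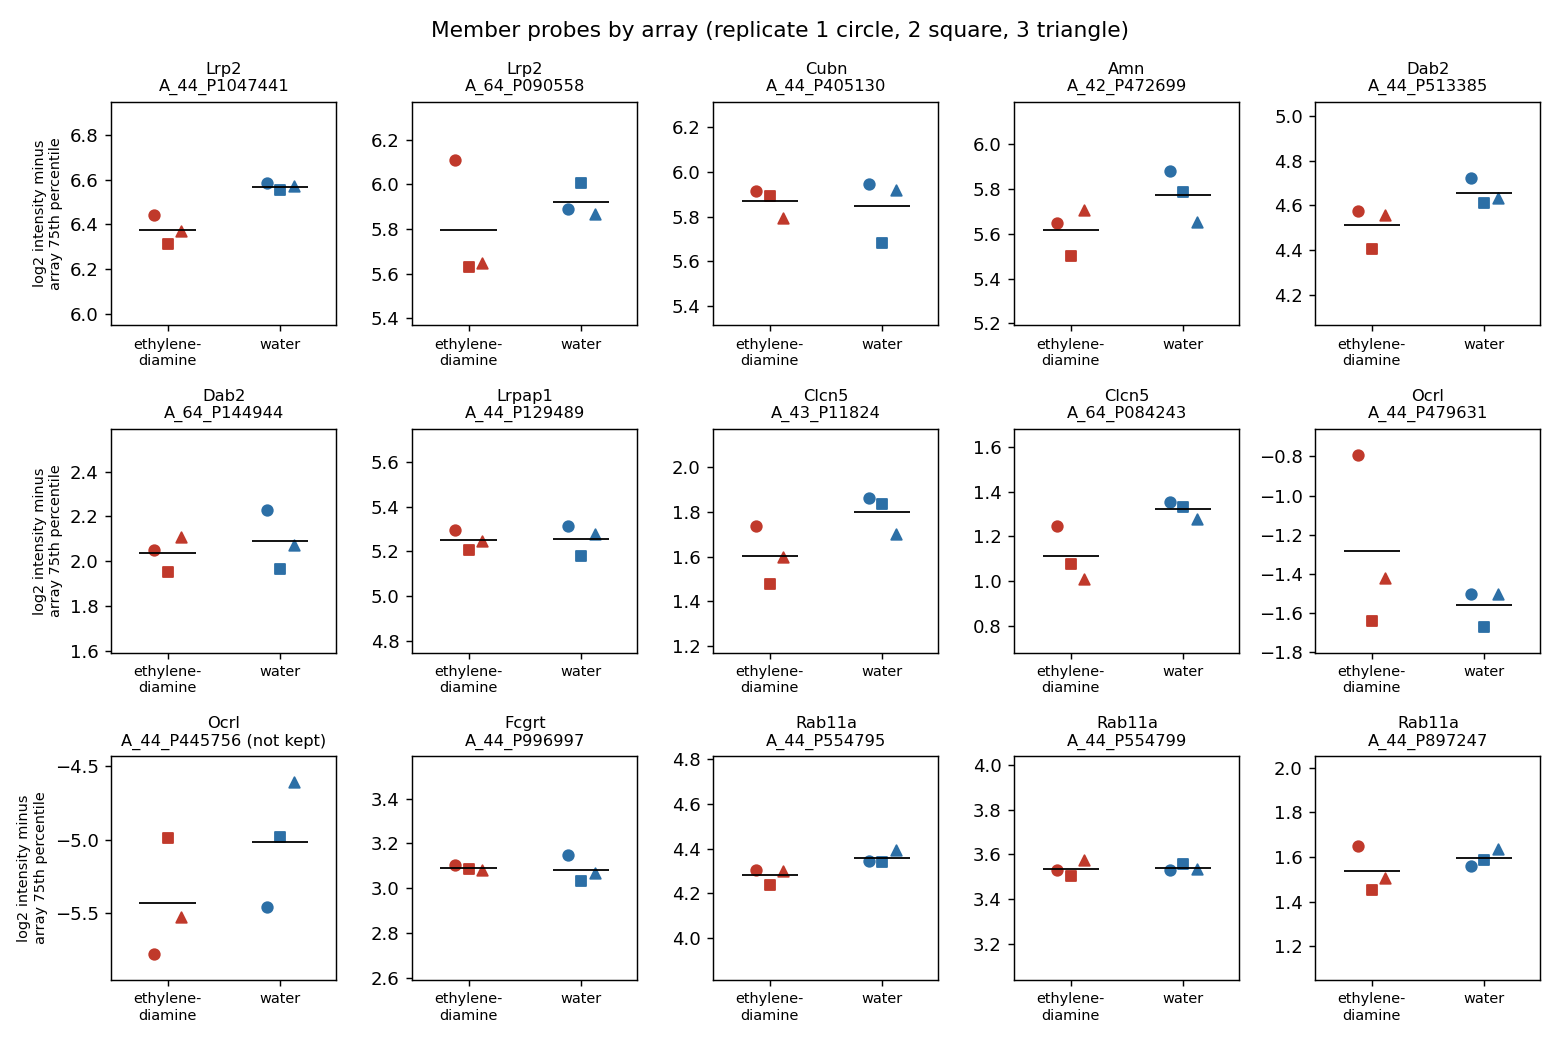
Level of each of the 15 member probes (log2 intensity minus the array's 75th percentile) on the 3 ethylenediamine arrays (red) and the 3 water arrays (blue); symbols mark replicates 1 to 3 and bars the group means. The brighter Lrp2 probe lay lower on all 3 ethylenediamine arrays than on any water array, while 1 ethylenediamine array stands alone for Ocrl.

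Lrp2 was measured by 2 probes. The brighter (A_44_P1047441) stood at 6.44, 6.31 and 6.37 in ethylenediamine replicates 1 to 3, against 6.58, 6.55 and 6.57 in water replicates 1 to 3. The groups did not overlap, and the water arrays lay close together, with an SD of 0.0156. The means were 6.38 ± 0.06 in ethylenediamine and 6.57 ± 0.02 in water (SD, n = 3 each), a log2 fold change of -0.19 ± 0.06 (SE). In linear terms the ethylenediamine level was 87.4% of water, with a 95% interval of 79.4% to 96.2%. The limma p was 0.0139, which ranked 431 of 11530 genes, and 0.371 after adjustment over all genes.

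The dimmer Lrp2 probe (A_64_P090558) did not show the same order. It stood at 6.11, 5.63 and 5.65 in ethylenediamine replicates 1 to 3, against 5.89, 6.004 and 5.87 in water replicates 1 to 3. Ethylenediamine replicate 1 was above all 3 water arrays, and replicates 2 and 3 were below them. Its log2 fold change was -0.13 ± 0.14 (SE), at an adjusted p of 0.778 over all probes by limma. Relative to the water mean, the probes stood at -0.13 and 0.19 on ethylenediamine replicate 1, at -0.26 and -0.29 on replicate 2, and at -0.20 and -0.27 on replicate 3. The probes thus differed in sign on replicate 1 and shared it on the other treated arrays.

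Cubn, on a single probe, stood at 5.92, 5.89 and 5.79 in ethylenediamine replicates 1 to 3, against 5.95, 5.68 and 5.92 in water replicates 1 to 3. The groups overlapped, and water replicate 2 was the lowest of the 6 arrays. The log2 fold change was 0.02 ± 0.09 (SE) at an adjusted p of 0.955 by limma. The 95% interval of the ethylenediamine level was 87.1% to 118% of water, which includes the 87.4% measured for Lrp2. The sign of the Cubn value was negative with median scaling, without ethylenediamine replicate 1 (-0.00) and without water replicate 2 (-0.06).

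The receptor pair was also set against each other within arrays, a comparison chosen after the values were seen. With the brighter Lrp2 probe, Lrp2 minus Cubn, each relative to its water mean, was -0.20, -0.30 and -0.14 in ethylenediamine replicates 1 to 3, against -0.08, 0.15 and -0.07 in water replicates 1 to 3. The groups did not overlap, and the log2 fold changes differed by -0.21. With the dimmer Lrp2 probe the same value was 0.12, -0.34 and -0.22 in ethylenediamine replicates 1 to 3, against -0.13, 0.25 and -0.12 in water replicates 1 to 3. There the groups overlapped through ethylenediamine replicate 1, and the log2 fold changes differed by -0.14. The difference between the receptors was not tested.

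Amn, which carries cubilin to the membrane, stood at 5.65, 5.50 and 5.71 in ethylenediamine replicates 1 to 3, against 5.88, 5.79 and 5.65 in water replicates 1 to 3. The groups overlapped through water replicate 3, and the log2 fold change was -0.16 ± 0.09 (SE; limma adjusted p = 0.596). Lrpap1 encodes the chaperone known as RAP, which keeps ligands off megalin during its folding. It stood at 5.30, 5.21 and 5.25 in ethylenediamine replicates 1 to 3, against 5.31, 5.18 and 5.28 in water replicates 1 to 3. The groups overlapped over their whole range, with a log2 fold change of -0.01 ± 0.06 (SE; limma adjusted p = 0.975) and a 95% interval of 89.7% to 110% of water.

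Dab2 was measured by 2 probes. The brighter stood at 4.57, 4.40 and 4.56 in ethylenediamine replicates 1 to 3, against 4.72, 4.61 and 4.63 in water replicates 1 to 3. The groups did not overlap, though the gap between the highest ethylenediamine array and the lowest water array was small beside the spread within either group. Its log2 fold change was -0.14 ± 0.07 (SE; limma adjusted p = 0.547). The dimmer probe stood at 2.05, 1.95 and 2.11 in ethylenediamine replicates 1 to 3, against 2.23, 1.97 and 2.07 in water replicates 1 to 3. There the groups overlapped, at a log2 fold change of -0.05 ± 0.09 (SE).

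**Figure D2:**
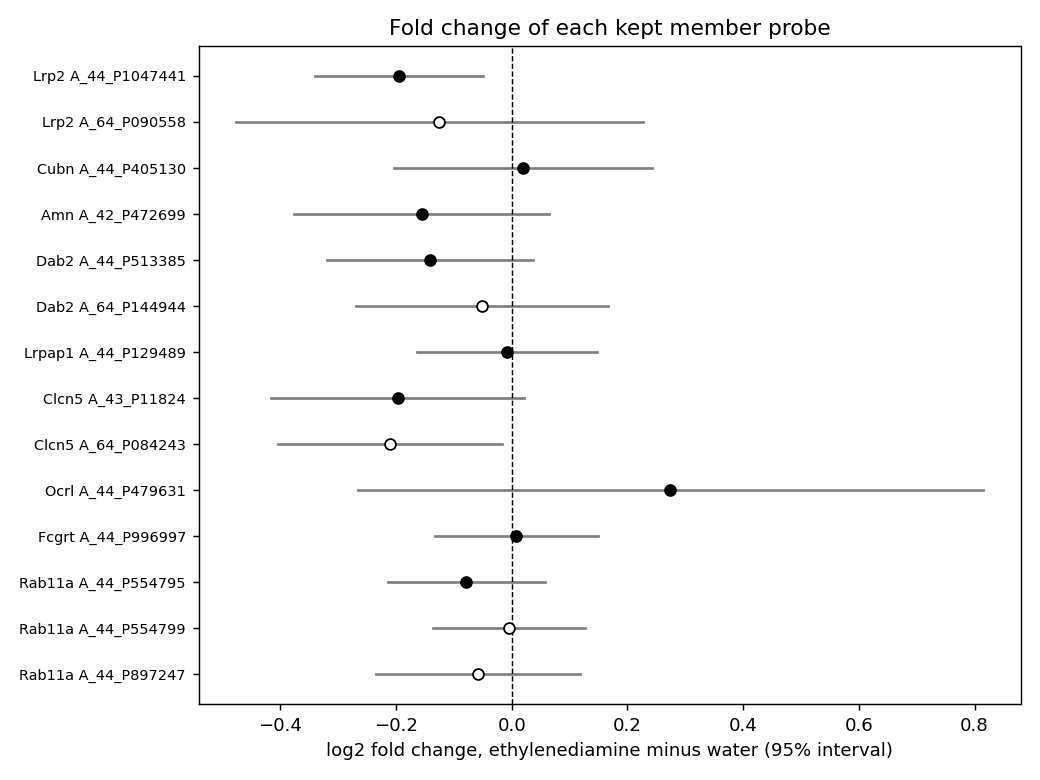
Log2 fold change, ethylenediamine minus water, of the 14 kept member probes with the 95% interval of the limma fit across all probes; filled points are the brightest probe of a gene. The intervals of the brighter Lrp2 probe and the dimmer Clcn5 probe lie below 0, and that of Ocrl is the widest of the 14.

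Clcn5 encodes the chloride-proton exchanger of proximal tubule endosomes. Its brighter probe stood at 1.74, 1.48 and 1.60 in ethylenediamine replicates 1 to 3, against 1.86, 1.84 and 1.70 in water replicates 1 to 3. Ethylenediamine replicate 1 lay above water replicate 3, so the groups overlapped, and the log2 fold change was -0.20 ± 0.09 (SE; limma adjusted p = 0.506). The other probe stood at 1.24, 1.08 and 1.01 in ethylenediamine replicates 1 to 3, against 1.35, 1.33 and 1.28 in water replicates 1 to 3, without overlap. Tested over all probes, its log2 fold change was -0.21 ± 0.08 (SE; limma adjusted p = 0.440). On both probes ethylenediamine replicate 1 was the treated array nearest to water.

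Ocrl encodes an inositol polyphosphate 5-phosphatase of early endosomes and the trans-Golgi network. Its brighter probe stood at -0.79, -1.64 and -1.42 in ethylenediamine replicates 1 to 3, against -1.50, -1.67 and -1.50 in water replicates 1 to 3. Ethylenediamine replicate 1 stood 0.77 above the water mean, while replicates 2 and 3 were at -0.08 and 0.14 from it. The log2 fold change of 0.27 ± 0.22 (SE; limma adjusted p = 0.691) rests on that array, and without it the value was 0.03. The second Ocrl probe was well above background on 1 of 3 ethylenediamine arrays and 2 of 3 water arrays and was not tested. It stood at -5.78, -4.99 and -5.53 in ethylenediamine replicates 1 to 3, against -5.46, -4.98 and -4.61 in water replicates 1 to 3.

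Fcgrt encodes the neonatal Fc receptor, which returns immunoglobulin G and albumin from endosomes to the circulation. It stood at 3.10, 3.09 and 3.08 in ethylenediamine replicates 1 to 3, against 3.15, 3.03 and 3.07 in water replicates 1 to 3. The treated arrays lay inside the range of the water arrays. The log2 fold change was 0.01 ± 0.05 (SE; limma adjusted p = 0.969), with a 95% interval of 91.7% to 110% of water, and its sign turned with median or quantile scaling.

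Rab11a encodes a small GTPase of recycling endosomes and had 3 probes. The brightest stood at 4.31, 4.24 and 4.30 in ethylenediamine replicates 1 to 3, against 4.34, 4.34 and 4.39 in water replicates 1 to 3. The groups did not overlap, but the log2 fold change was only -0.08 ± 0.05 (SE; limma adjusted p = 0.641). The other two probes overlapped between groups, with log2 fold changes of -0.00 ± 0.05 and -0.06 ± 0.07 (SE).

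All 3 ethylenediamine arrays lay below all 3 water arrays for 3 of 9 genes (Lrp2, Dab2 and Rab11a), where 8.27% of all genes did so. They lay above for 0 of 9, where 9.2% of all genes did, and 17.5% of all genes did either. Over probes the count was 4 of 14 below and 0 above, where 9.57% of all probes lay below, 8.43% above and 18% either. Probes of 1 gene share their transcript and are not independent. Of the 5 kept probes that were not the brightest of their gene, 1, that of Clcn5, did not overlap between groups.

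Ethylenediamine replicate 1 shared its slide (slide 1) and scan day with all 3 water arrays, whereas ethylenediamine replicates 2 and 3 were on slide 2, scanned on another day. A fit with slide as a fixed block, like a fit of slide 1 alone, gives for each gene the value of ethylenediamine replicate 1 against water. It was -0.13 for Lrp2 on the brighter probe and 0.19 on the dimmer one. It was -0.12 for Amn, -0.08 for Dab2, -0.07 for Clcn5, -0.05 for Rab11a, 0.02 for Fcgrt, 0.04 for Lrpap1, 0.07 for Cubn and 0.77 for Ocrl. The Lrp2 value on the brighter probe was thus smaller than over all arrays and kept its sign, and the Clcn5 value was smaller than the standard error of its fit over 6 arrays. The Ocrl value in both of these fits is that of 1 treated array, with no treated replicates behind it. Without that array the fit gave 0.03 for Ocrl. With slide as a random block, which draws on all 6 arrays, Ocrl stood at 0.32. In that fit Lrp2 stood at -0.19 on the brighter probe and -0.10 on the dimmer one. The part of slide in the rest was not tested, since slide 2 holds no water array.

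**Figure D3:**
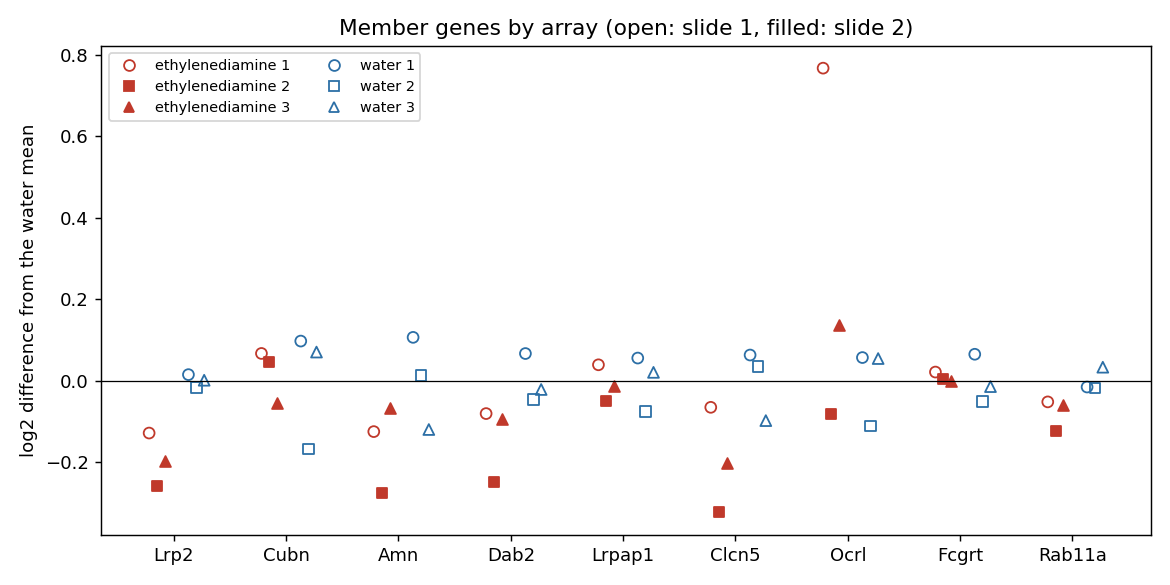
Difference of each of the 9 member genes from its water mean (log2) on the ethylenediamine arrays (red) and the water arrays (blue); open symbols are slide 1 and filled symbols slide 2. For Lrp2, Amn, Dab2, Clcn5 and Rab11a all 3 ethylenediamine arrays lie below 0, and for these genes ethylenediamine replicate 2 is the lowest array.

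Across the 9 genes, 5 were below their water mean on ethylenediamine replicate 1, 7 on replicate 2 and 8 on replicate 3, against 1, 7 and 4 on water replicates 1 to 3. The median of the 9 differences was -0.05, -0.12 and -0.06 on ethylenediamine replicates 1 to 3, against 0.06, -0.05 and 0.00 on water replicates 1 to 3. Water replicate 2 thus fell among the treated arrays by this count. Ethylenediamine replicate 1 had 35691 probes well above background, against 38930 to 40843 on the other 5 arrays. Its 17964 probes that were not well above background on any array stood 0.84 above their water mean, and the part of this in the Ocrl value was not tested.

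The proximal tubule, the segment that carries the receptors, was checked with 25 measured markers of 26 listed, all well above background on all 6 arrays. Their median log2 fold change was -0.00, with 4 of 25 lower at an unadjusted p under 0.05 and 0 higher, where 4.97% of all genes were lower and 5.39% higher. Slc34a1, the phosphate transporter of the brush border, stood at 0.00 ± 0.06, and Slc5a2, the glucose carrier of the early tubule, at -0.14 ± 0.06 (SE, n = 3 per group). The log2 of the summed marker level was 11.86 to 11.91 on the ethylenediamine arrays and 11.88 to 11.93 on the water arrays. Set against the median of these markers on the same array, the brighter Lrp2 probe was at -0.05, -0.23 and -0.20 in ethylenediamine replicates 1 to 3, against -0.01, -0.01 and 0.02 in water replicates 1 to 3, a difference of -0.16. The groups did not overlap on this probe, and ethylenediamine replicate 1 was close to water. The dimmer Lrp2 probe stood 0.19 above its water mean on ethylenediamine replicate 1, where the marker median was -0.08. On that probe the groups overlapped. On the same scale Clcn5 differed by -0.16, Amn by -0.12, Dab2 by -0.11, Rab11a by -0.04, Lrpap1 by 0.03, Fcgrt by 0.04, Cubn by 0.05 and Ocrl by 0.31.

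Markers of other cells are given beside the same shares of all genes at an unadjusted p under 0.05, 4.97% lower and 5.39% higher. The median log2 fold change was -0.07 for 8 podocyte genes (0 past an unadjusted p of 0.05), with Nphs1 at -0.16. It was -0.02 for 7 thick ascending limb genes, 1 of them lower and 1 higher, with Umod at 0.25 and Slc12a1 at -0.02. It was -0.41 for 5 distal convoluted or connecting tubule genes, 3 of them lower at an unadjusted p under 0.05, with Slc12a3 at -0.35 and Calb1 at -0.89. It was -0.19 for 9 collecting duct genes, 4 of them lower, with Aqp2 at -0.57 and Aqp3 at -0.19. It was -0.07 for 9 endothelial genes, with Pecam1 at -0.11 and Kdr at -0.15, and -0.03 for 9 leukocyte genes, with Ptprc at -0.07 and Cd68 at -0.04. The 11 tubular injury genes had a median of 0.31 and 5 of them were higher at an unadjusted p under 0.05, with Havcr1 at 2.56 and Lcn2 at 1.06. Havcr1 was well above background on 3 of 3 ethylenediamine arrays and 2 of 3 water arrays. The part of these markers in the values of the receptor genes was not tested.

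The wider endocytic route was taken as lists of genes by role, described by counts and medians beside a median of -0.00 over all genes. By limma, 0 genes of these lists had an adjusted p under 0.05. Of 28 genes of the clathrin coat and its adaptors, 0 had an unadjusted p under 0.05 and the median log2 fold change was -0.01. The light chain Cltb stood at 0.11 ± 0.05 and Ap2m1, the cargo-binding subunit of the AP-2 adaptor, at 0.11 ± 0.05 (SE, n = 3 per group). Of 37 genes of early and recycling endosomes, 0 had an unadjusted p under 0.05 and the median was -0.04. The endosomal SNARE Vamp8 stood at -0.13 ± 0.05 and Rab11fip1, a Rab11 effector, at -0.42 ± 0.19 (SE).

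Of 25 genes listed for endosomal acidification and ion transport, 18 were negative, against 51.2% of all genes, with a median log2 fold change of -0.08. In 7 of the 25 all ethylenediamine arrays lay below all water arrays, where 8.27% of all genes did, and in 3 above, where 9.2% did. Of the 25, 2 were lower at an unadjusted p under 0.05 and 0 higher, where 4.97% of all genes were lower and 5.39% higher. Atp6v1h, a subunit of the proton pump, stood at 3.63, 3.64 and 3.61 in ethylenediamine replicates 1 to 3, against 3.77, 3.74 and 3.89 in water replicates 1 to 3. The groups did not overlap, at a log2 fold change of -0.17 ± 0.06 (SE; limma adjusted p = 0.442). Slc9a3 encodes the sodium-proton exchanger NHE3 of the brush border, which also cycles through endosomes. It stood at -0.38, 0.20 and -0.05 in ethylenediamine replicates 1 to 3. In water replicates 1 to 3 it stood at 0.40, 0.40 and 0.17, with a log2 fold change of -0.40 ± 0.16 (SE; limma adjusted p = 0.479).

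Of 22 phosphoinositide kinases and phosphatases, the family of enzymes to which Ocrl belongs, 1 was higher and 1 lower at an unadjusted p under 0.05, shares near those of all genes. Their median log2 fold change was -0.05. The lipid kinase Pip4k2a stood at 0.30 ± 0.08 (SE). Of 11 other genes of the LDL receptor family and its chaperones, 0 had an unadjusted p under 0.05 and the median was -0.10. Lrp3 stood at 0.26 ± 0.12 and Mesd, a chaperone of LDL receptor family members, at -0.14 ± 0.08 (SE).

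**Figure D4:**
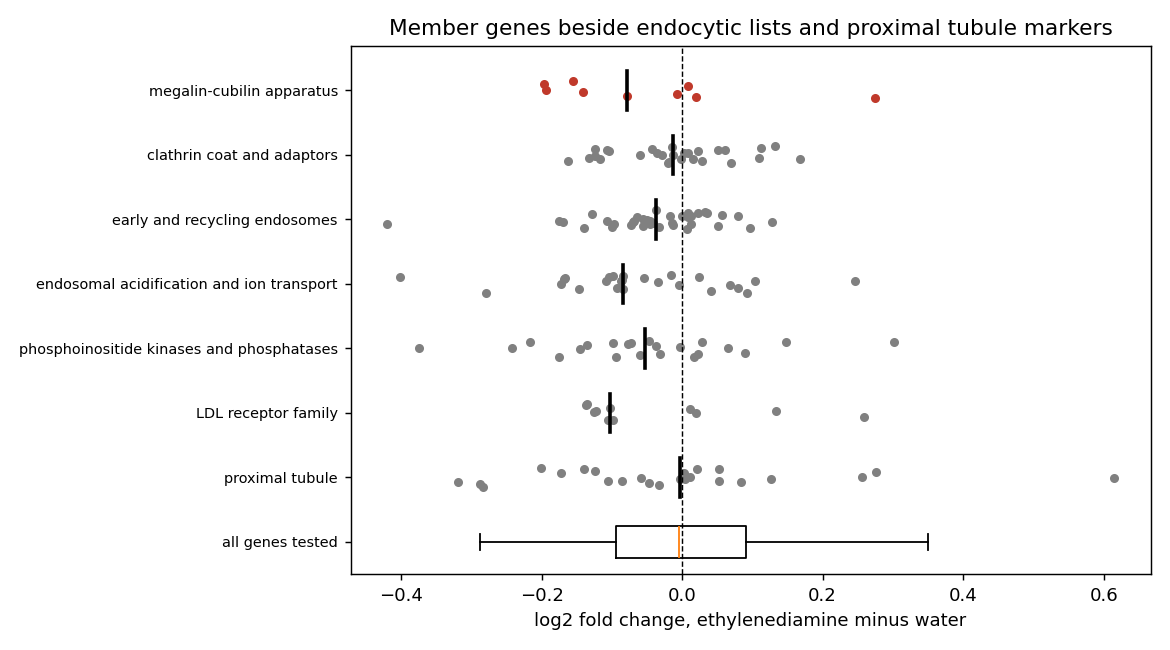
Log2 fold change, ethylenediamine minus water, of the 9 member genes (red), of 5 endocytic gene lists and of proximal tubule markers (grey), with list medians as bars; the box over all 11530 genes shows the quartiles, with whiskers at the 5th and 95th percentiles. The member median of -0.08 lies beside -0.08 for endosomal acidification and -0.00 for proximal tubule markers.

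Among 25 genes for ligands of megalin and cubilin and for vitamin handling, 2 were higher at an unadjusted p under 0.05, where 5.39% of all genes were, and 0 lower, where 4.97% were. So few of 25 do not set the list apart from all genes. The median log2 fold change of the list was 0.11. The 2 that were higher, Ttr and Alb, encode plasma proteins made mainly in liver. Both passed the filter on dim probes only through the ethylenediamine arrays, so that count of 2 is not independent of the filter. Ttr, the thyroxine and retinol-binding-protein carrier transthyretin, stood at -2.75, -4.70 and -3.03 in ethylenediamine replicates 1 to 3, against -6.69, -7.30 and -7.28 in water replicates 1 to 3. It was not well above background on any water array, and its mean was at least 3.54-fold higher in ethylenediamine. That bound sets the ethylenediamine mean against, on each water array, the higher of the probe's own signal and the lowest signal well above background. Albumin (Alb) stood at -2.04, -3.89 and -2.29 in ethylenediamine replicates 1 to 3, against -5.03, -5.41 and -5.77 in water replicates 1 to 3, where it was well above background on 1 of 3 arrays. Its log2 fold change on the measured signals was 2.66 ± 0.51 (SE; limma adjusted p = 0.329), which rests on 2 water values not well above background. For both genes the groups did not overlap and ethylenediamine replicate 2 was the lowest treated array. The highest was replicate 1, where probes not well above background on any array stood 0.84 above their water mean. The part of this in the Ttr and Alb values was not tested.

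Other transcripts of liver plasma proteins on the list did not share that order. The vitamin D-binding protein Gc, a megalin ligand, stood at -4.04, -0.91 and -1.71 in ethylenediamine replicates 1 to 3, against -3.69, -4.26 and -3.80 in water replicates 1 to 3. It was high on ethylenediamine replicates 2 and 3 and lowest but for 1 array on replicate 1. Apoa1 had a log2 fold change of 0.36 ± 0.29, Hp 0.25 ± 0.20 and Apoh -0.22 ± 0.53 (SE), with overlap in each. These genes were chosen after their values were seen, and whether the Ttr and Alb signals came from liver RNA was not tested.

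The 5 genes whose pattern over the 6 arrays was nearest to that of Lrp2, by the root mean square difference of log2 levels centred on the water mean, were Fggy, Rbm6, Ndufa9, Ppargc1a and Ubr7, at distances of 0.0199 to 0.0260. Their log2 fold changes ran from -0.20 to -0.18. The 5 nearest to Cubn were Kifc2, Slc12a8, Ncam1, Dpp4 and Dvl1, at distances of 0.0227 to 0.0330, with log2 fold changes from 0.01 to 0.06. These distances describe 6 arrays only, and fold changes near those of Lrp2 and Cubn follow from the way the genes were picked.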

How the data were processed

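Each deposited scanner file gives 1 linear intensity per spot, which Agilent Feature Extraction 10.7.1.1 had corrected for background and detrended, on a probe grid built on rn4, per the file headers. The deposited value table holds the same intensity divided by 1 constant per array, as checked here within 2% for deposited values of at least 0.05. Smaller values were not checked. The deposited table has column medians of 0.1062, 0.1104 and 0.1071 (ethylenediamine) and 0.1076, 0.1053 and 0.1046 (water). It served as an alternative. Here log2 of the processed intensity was taken and each array's 75th percentile subtracted. Control spots (1439) and 22 probes with an outlier flag were left out, and none of the other spots was saturated. Symbols came from RefSeq accessions (GRCr8, names only) and named 28194 probes. The brightest kept probe stood for a gene.

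Groups and replicate numbers came from the labels. The test was limma 3.58.1 (R 4.3.3), with moderated variances and Benjamini-Hochberg adjustment over all genes or all kept probes, on 3 animals per group, a number that limits the precision. The fit was tested on simulated data with larger changes than those of the members and no slide effect. That test does not bear on the member values. The alternatives were normexp background correction (offset 50, on median spot signals, as the files hold no mean signal), median and quantile scaling, the deposited values, other filters, variance models, array weights, slide or replicate blocks, the mean of a gene's probes, and leaving out each array.

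The genes of the group, the lists and the rule for named genes were chosen with earlier results of these data known. The rule took all members, the 4 genes of smallest p under 0.05 of each pathway list or otherwise 2, the first 2 measured markers of each cell type, Havcr1, Lcn2, and the 5 nearest patterns to Lrp2 and to Cubn. Other named genes were chosen after their values were seen, and 2 genes that the rule took are not reported here.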

Additional observations from a re-analysis of the deposited data

How the results depend on the processing

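By limma, 0 of the 9 genes and 0 of the 14 probes passed an adjusted p of 0.05 in every alternative run. Lrp2 was negative in 20 of 20 alternatives (-0.23 to -0.13, limma adjusted p of at least 0.253), with an unadjusted p under 0.05 in 17 of them. The exceptions were the fixed slide block, slide 1 alone and the mean of a gene's probes. The first 2 of these, the slide fits, rest on 1 treated array and gave -0.13. Amn, Dab2, Clcn5 and Rab11a were negative and Ocrl positive in all 20. Part of this was fixed in advance. Other filters, variance models and the replicate block left the value of each member unchanged, and both slide fits gave the same value. These counts follow the brightest probe of a gene, except with the mean of its probes. The dimmer Lrp2 probe stood at 0.19 in both slide fits. The number of genes at an unadjusted p under 0.05 was 2 with normexp background (Lrp2 and Clcn5) against 1, and 1 to 2 when an array was left out. With the mean of a gene's kept probes that gene was Clcn5 (-0.20, limma adjusted p = 0.446), where Lrp2 stood at -0.16 (adjusted p = 0.581). In the fits with slide as a fixed block or of slide 1 alone, which rest on 1 treated array, Ocrl stood at 0.77. With slide as a random block it stood at 0.32. The number of probes was 1 without a filter, against 2. It was 4 without ethylenediamine replicate 1, 1 without ethylenediamine replicate 3 or water replicate 2, and 0 without ethylenediamine replicate 2, water replicate 1 or water replicate 3. Lrp2 on its brighter probe, relative to proximal tubule markers, was -0.16, -0.050 within slide 1 and -0.22 to -0.12 when an array was left out. Values near 0 changed sign, and the cause was not tested. Cubn was -0.0088 with median scaling and -0.064 to 0.068 when an array was left out, negative without ethylenediamine replicate 1 (-0.0040) or water replicate 2. Lrpap1 was 0.039 in both slide fits and -0.046 to 0.020 when an array was left out, positive without ethylenediamine replicate 2, water replicate 1 or water replicate 3. Fcgrt was -0.020 with median scaling, -0.0020 with quantile scaling and -0.017 to 0.041 when an array was left out, negative without water replicate 2. Over all genes, 0 were called by limma (1194 at an unadjusted p under 0.05), against 1 with an intensity trend, 10 with the slide block, 6 within slide 1 and 0 to 1 when an array was left out. Over all probes 4 were called, against 7 with normexp background, 76 with the slide block, 0 with the replicate number as a block and 1 to 9 when an array was left out, 9 without ethylenediamine replicate 1. Same-numbered arrays did not deviate together (r = -0.0030, 0.022 and -0.0080 across genes), so these values show no pairing by number. So few arrays cannot exclude a pairing of the animals. With the replicate block 0 genes were called, and Lrp2 kept -0.19 at an adjusted p of 0.573.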
